A study of Homo sapiens with 6 samples.

Results

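The subject is a set of 33 genes that the transcription factor p53 is known to activate, chosen by gene symbol for that role. All 33 were found among 19669 genes with a name and a single row in the deposited table. They were measured by RNA-seq, which reads mRNA levels, and by Ribo-seq, which sequences the mRNA fragments that ribosomes protect, in 786-O cells, a human clear cell renal carcinoma line without functional VHL. The libraries are labelled MT, WT and EV, with 1 library for each label in each assay, 6 in all. By the series title, MT cells carry PHYHD1 lacking the stretch from 107 to 130, WT cells carry PHYHD1-WT, and EV cells carry the empty vector; the design text instead describes WT as untreated and MT as overexpressing PHYHD1. Each condition had 3 dishes. The sources used here do not give any pooling of the dishes, the promoter of the transgene, the vector, or whether a line is 1 clone.

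Under DNA damage or other stress, p53 is released from its ubiquitin ligase MDM2 and binds paired short DNA elements near its target genes. Its targets halt the cell cycle, trigger apoptosis, repair DNA, adjust metabolism and, through MDM2 and the phosphatase PPM1D, switch p53 off again. Cell line catalogues list 786-O without CDKN2A, the locus of the MDM2 inhibitor ARF. PHYHD1 belongs to the phytanoyl-CoA dioxygenase family.

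The p53 binding unit is a 10-base pattern whose reverse complement is the same pattern, so that a match holds on both strands; a complete response element has a pair of units up to 13 bases apart. RefSeq promoter windows (GRCh38.p14, from 250 bases before to 50 after a transcript start) were present for 26 of the 33 genes. An exact unit lay in a window of 7 of the 26 genes (26.9%), against 8.11% of the 15335 genes of the table with a window. A complete element with both units exact was found for 4 of those 15335 genes (0.0261%), DDB2 among them. When 1 mismatch was allowed in each unit and the spacer was 0 or 1 base, MDM2 was added, giving 2 of the 26 genes against 0.385% of all genes, a count that overlaps with the exact elements. Among 40 other genes described as p53 targets, 4 had an exact unit (10%), nearer the share of all genes than that of the members. Of the same 40, 0 had a complete exact element and 1 had the element with mismatches. The shares are descriptions, since these definitions were settled after the windows of the members had been scanned, also for pairs with up to 2 mismatches. The stretches below, with the match in capitals, are shown as the letters of the p53 binding pattern beside members whose values are described further on. A match is not evidence of binding in these cells, and distances run from an annotated start to the first matched base. Sequence outside the windows was not searched, so a missing match does not show that a gene lacks an element.
DDB2, complete element 5 bases downstream, chr11:47214975-47215004, plus strand: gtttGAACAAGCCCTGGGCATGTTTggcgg
MDM2, element with up to 1 mismatch per unit, 94 and 101 bases upstream of different starts, chr12:68808918-68808947, plus strand: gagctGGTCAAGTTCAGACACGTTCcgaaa
FDXR, single unit 11 bases upstream, chr17:74872986-74873015, minus strand: gggcaggagcGGGCTTGCCCtgcggagcag
FAS, single unit 122 bases upstream, chr10:88991299-88991328, plus strand: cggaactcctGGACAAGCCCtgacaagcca
RPS27L, single unit 59 bases upstream, chr15:63157517-63157546, minus strand: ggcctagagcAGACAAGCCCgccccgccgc
AEN, single unit 34 bases upstream, chr15:88621296-88621325, plus strand: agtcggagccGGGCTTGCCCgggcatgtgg
PLK2, single unit 132 bases upstream, chr5:58460199-58460228, minus strand: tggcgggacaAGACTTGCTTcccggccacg
SESN1, single unit 49 bases upstream, chr6:109009018-109009047, minus strand: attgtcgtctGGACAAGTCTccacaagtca

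RNA-seq values name no unit and were read as FPKM, fragments per length and library size, although TPM is possible. Ribo-seq values were read as TPM, in which every library has the same total. The deposited values hold no read totals, so no counting interval can be given. As a guide to the smallest readable values, genes detected in just 1 library of an assay had medians between 0.038 and 0.046 FPKM, and between 0.117 and 0.148 TPM. With 1 library per label and assay there is no replicate check and no test, and each difference below is between libraries. PHYHD1 stood at 109.5 FPKM in MT, 118 FPKM in WT and 0.092 FPKM in EV, and at 905 TPM in MT, 222 TPM in WT and 0 TPM in EV. It was thus high in the libraries labelled MT and WT, as the title has it and not as an untreated WT group would. The renal epithelial factor PAX8 had 94.0 FPKM in MT, 75.9 in WT and 88.5 in EV. Of other cell types, the leukocyte marker PTPRC reached at most 0.071 FPKM, and the endothelial marker PECAM1 was listed at 0 in every library. The albumin gene ALB was at 0 except for 0.256 TPM in MT. The collagen gene COL1A1 passed 1 unit in some libraries. It had 0.536 FPKM in MT, 1.54 in WT and 0.449 in EV, and 1.35 TPM in MT, 0.755 in WT and 1.11 in EV.

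Most of the p53 target genes were expressed at middling levels in all 6 libraries. In RNA-seq 31 of the 33 genes reached 1 FPKM in MT, 31 in WT and 29 in EV, and 19 reached 10 FPKM under each label. In Ribo-seq 31, 29 and 30 genes reached 1 TPM in MT, WT and EV. SPATA18, a regulator of mitochondrial quality control, and TP53I11 stayed below 1 unit in every library. SPATA18 stood at 0.187 FPKM in MT, 0.428 in WT and 0.361 in EV, and at 0.103 TPM in MT, 0.279 in WT and 0 in EV. TP53I11 was listed at 0 in MT and WT and at 0.107 FPKM in EV, and at 0 TPM in all 3 Ribo-seq libraries. Both genes were left out of the comparisons, as was PLK3 in footprints of WT over EV.

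**Figure D1:**
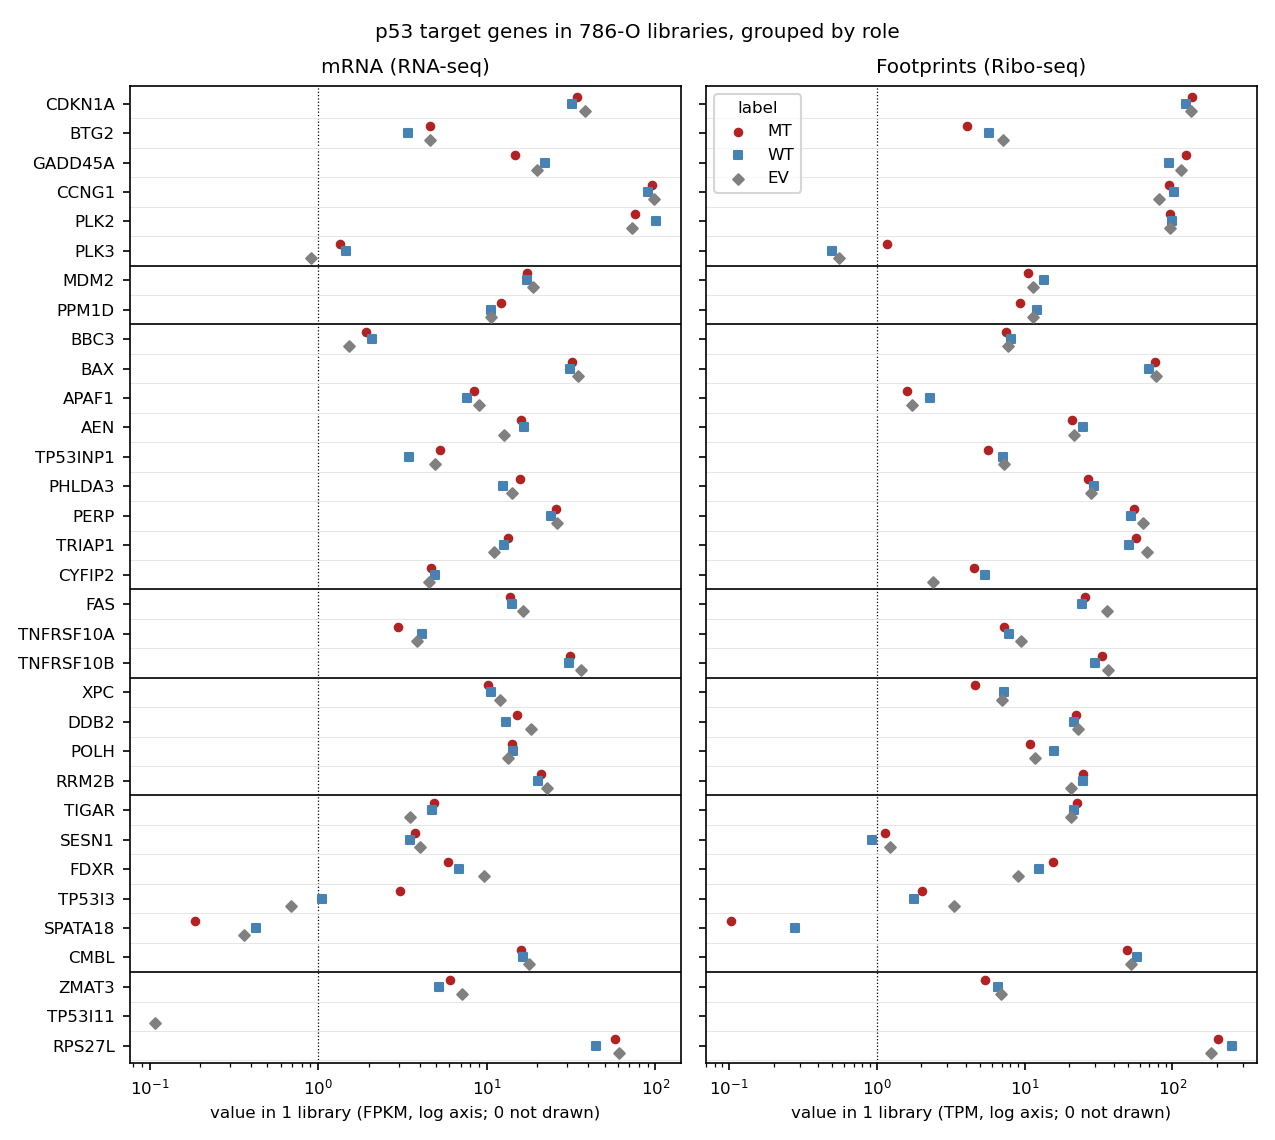
mRNA values (left, FPKM) and ribosome footprint values (right, TPM) of the 33 p53 target genes on log axes, 1 point per library with MT as circles, WT as squares and EV as diamonds, and horizontal lines between roles. The symbols of most genes lie close together; TP53I3 mRNA, at 3.06 FPKM in MT against 0.687 in EV, and CYFIP2 footprints, at 5.38 TPM in WT against 2.41 in EV, stand apart.

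Few of the genes differed between libraries by much. Differences were taken on the log2(value + 1) scale, which understates changes of low genes, over genes at 1 unit or more in a compared library, and a difference of 1.5-fold or more was counted. In mRNA of MT over EV 2 of 31 genes passed this rule of size, the redox gene TP53I3 upward and FDXR downward, where 2.31% of 11016 genes passed it. In WT over EV none of 31 passed (2.63% of 11032 genes), and in MT over WT TP53I3 alone of 31 passed, upward (3.23% of 11013 genes). In footprints of MT over EV 3 of 31 genes passed, CYFIP2 and FDXR upward and BTG2 downward, against 10.8% of 10737 genes. In footprints of WT over EV 2 of 30 passed, CYFIP2 upward and TP53I3 downward (12.1% of 10700 genes), and in MT over WT none of 31 (12.5% of 10752 genes). These counts lie at or under the shares of all genes in each comparison except the mRNA of MT over EV, where 2 genes are too few to read a difference in share. With a pseudocount of 5 none of 31 passed in mRNA or in footprints of MT over EV, against 0.336% and 2.76% of all genes at that setting, and with one of 0.1 there were 5 of 31 in those footprints, against 15.9%. In bulk libraries, fewer cells with a transcript and less of it per cell cannot be told apart. A 2-fold difference was reached by TP53I3 mRNA in MT over EV, where 0.29% of all genes reached it. No other member reached it in mRNA or footprints. The shares of all genes past 2-fold were 0.499% in mRNA of WT over EV and 0.508% in MT over WT. In footprints they were 2.83% in MT over EV, 3.36% in WT over EV and 3.19% in MT over WT.

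The medians were shifted by little, in the same direction in both assays in MT over EV and in opposite directions in WT over EV and MT over WT. In mRNA the median log2 difference of the measured p53 targets was -0.06 in MT over EV and -0.13 in WT over EV. That of all genes was -0.01 in each. In each comparison 19 of 31 p53 targets were below 0 (61.3%), against 51.3% and 51.1% of all genes. In MT over WT the mRNA median was 0.04, with 18 of 31 above 0 and 13 below (41.9%), against 51% of all genes below. In footprints the medians were -0.06 in MT over EV with 21 of 31 below 0, 0.04 in WT over EV with 14 of 30 below 0, and -0.11 in MT over WT with 17 of 31 below 0. Those of all genes were 0.01, 0.03 and -0.01, with 47.9%, 46.6% and 51.6% of genes below 0. The footprint median of MT over WT became 0.03 when a minimum of 10 units was set. EV held the highest mRNA value of the 3 labels for 17 of 31 genes (54.8%), against 33.8% of all 11097 genes, and the highest footprint value for 12 of 31 (38.7%), against 29.9% of 10882 genes. The comparisons of MT and of WT with EV share the EV library, so their medians are not separate observations.

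**Figure D2:**
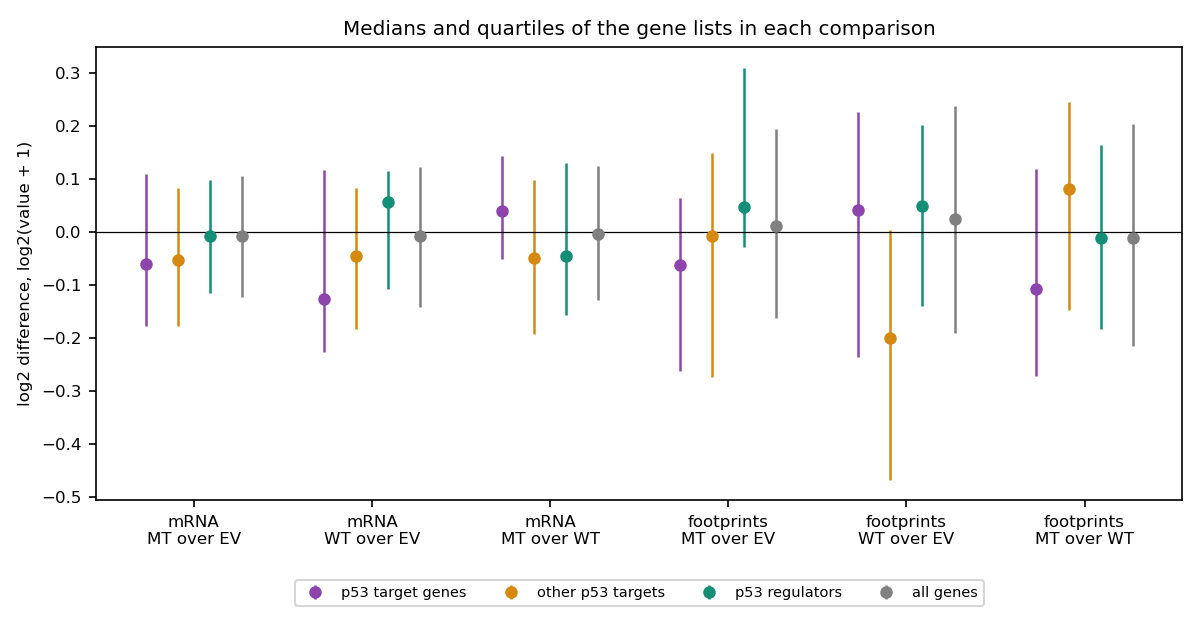
Median (point) and quartiles (bar) over genes of the log2 difference for the p53 target genes, the other p53 targets, the p53 regulators and all genes in 6 comparisons between single libraries. The p53 target genes have an mRNA median of -0.13 in WT over EV against -0.01 for all genes, and the bars of every list overlap those of all genes.

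RNA-seq and Ribo-seq libraries are separate, so the direction of a gene in one assay can be set beside its direction in the other. The pooling of the dishes is not given, so the assays of a label may share cultures. Their directions are therefore not read as separate observations. In MT over EV 13 of the 31 genes measured in both assays were lower in both (41.9%) and 4 were higher in both, against 23.9% and 25% of 10331 genes. In WT over EV 10 of 30 were lower in both (33.3%) and 7 were higher in both, against 22.7% and 26.1% of 10335 genes. In MT over WT 9 of 31 were lower in both (29%) and 10 were higher in both (32.3%), against 25.2% and 21.8% of 10352 genes. The 13 genes lower in both assays in MT over EV were BTG2, MDM2, BAX, APAF1, PERP, FAS, TNFRSF10A, TNFRSF10B, XPC, DDB2, SESN1, CMBL and ZMAT3, most of them by small amounts, and the 4 higher in both were PLK2, PLK3, CYFIP2 and TIGAR. PLK3 was under 1 unit in EV in both assays and entered through its higher MT library, so it could only count as higher.

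**Figure D3:**
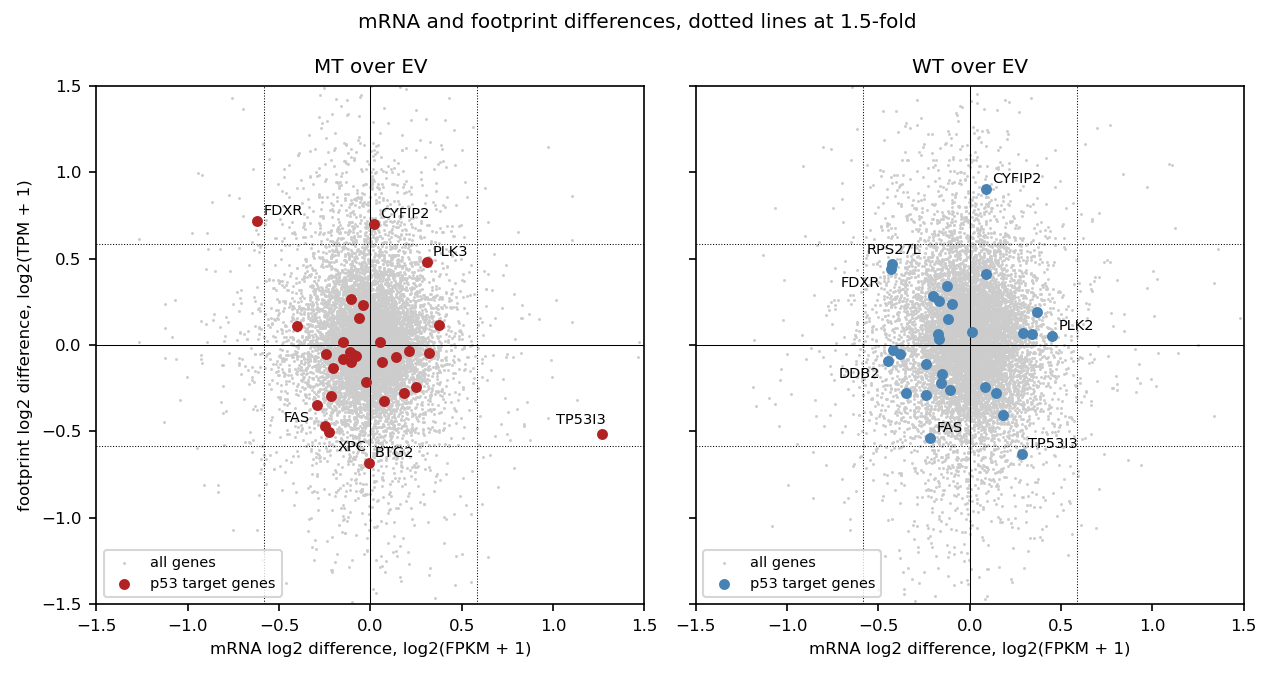
log2 difference in mRNA (horizontal) and in footprints (vertical) of each gene in MT over EV (left) and WT over EV (right), with p53 target genes in colour, all genes in grey and dotted lines at 1.5-fold; a few genes outside the axes are not drawn. Most p53 targets lie within the dotted lines, with FDXR at -0.62 in mRNA and 0.72 in footprints in MT over EV.

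The genes of cell cycle arrest showed no direction common to both assays and both labels. In MT over EV 4 of 6 were below 0 in mRNA and 1 of 6 in footprints, against 51.3% and 47.9% of all genes. In WT over EV 3 of 6 were below 0 in mRNA and 3 of 5 in footprints, against 51.1% and 46.6%. CDKN1A, the cyclin-dependent kinase inhibitor p21 and the best known p53 target, had 34.2 FPKM in MT, 32.1 in WT and 38.1 in EV. Its footprints stood at 136 TPM in MT, 124 in WT and 134 in EV. The mRNA was thus highest in EV, with log2 differences of -0.15 in MT over EV and -0.24 in WT over EV, while footprints differed by 0.02 in MT over EV and -0.11 in WT over EV. GADD45A, a stress-induced growth arrest protein, had 14.8 FPKM in MT, 22.0 in WT and 19.8 in EV. Its footprints stood at 124 TPM in MT, 94.8 in WT and 115 in EV. MT thus had the least GADD45A mRNA and the most footprints, and WT the reverse. Per mRNA, footprints of GADD45A were 0.93 higher on the log2 scale in MT than in WT, past the 1.5-fold rule.

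Cyclin G1 (CCNG1), which recruits protein phosphatase 2A to MDM2, was among the most abundant members, at 95.6 FPKM in MT, 90.0 in WT and 98.3 in EV. Its footprint values were 95.1 TPM in MT, 103 in WT and 81.0 in EV, lowest in EV. PLK2, a polo-like kinase, had 75.8 FPKM in MT, 100.3 in WT and 73.1 in EV, so that WT was highest with a ratio of 1.37 over EV. Its footprints hardly varied, at 97.0 TPM in MT, 99.3 in WT and 95.7 in EV. PLK3, a relative, was close to the lower limit at 1.36 FPKM in MT, 1.46 in WT and 0.902 in EV, and its footprints were 1.18 TPM in MT, 0.494 in WT and 0.559 in EV. Its footprints per mRNA differed by 0.60 in MT over WT. BTG2, an antiproliferative protein that promotes mRNA deadenylation, had 4.58 FPKM in MT, 3.42 in WT and 4.62 in EV. BTG2 footprints were lowest in MT, at 4.10 TPM in MT, 5.77 in WT and 7.20 in EV, a log2 difference of -0.68 in MT over EV. Among genes under 10 units 18.1% passed 1.5-fold in that comparison.

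The feedback genes were steady in mRNA. MDM2, the ubiquitin ligase of p53, had 17.3 FPKM in MT, 17.4 in WT and 18.7 in EV. Its footprints stood at 10.6 TPM in MT, 13.6 in WT and 11.4 in EV. PPM1D, a phosphatase that reverses damage signalling to p53, had 12.1 FPKM in MT, 10.7 in WT and 10.5 in EV, with footprints of 9.30, 12.1 and 11.5 TPM in MT, WT and EV. Footprints of both genes were highest in WT and lowest in MT, with log2 differences in MT over WT of -0.34 for MDM2 and -0.35 for PPM1D. The robust SD of that difference across all genes of 10 to 100 TPM was 0.286, which mixes real differences with error.

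None of the 9 genes listed under mitochondrial apoptosis passed the 1.5-fold rule in mRNA in any of the 3 comparisons. In footprints 8 of the 9 were below 0 in MT over EV and 4 of the 9 in WT over EV, against 47.9% and 46.6% of all genes. CYFIP2 alone of the 9 passed the rule there, upward, and BBC3, BAX, APAF1, AEN and PHLDA3 were below 0 in MT over EV by small amounts, with log2 differences of -0.07 to -0.04. BAX, which opens the outer mitochondrial membrane, had 32.2 FPKM in MT, 31.3 in WT and 34.8 in EV. BAX footprints stood at 75.8 TPM in MT, 69.5 in WT and 78.0 in EV, again highest in EV. The BH3-only activator BBC3 (PUMA) was low in mRNA, at 1.92 FPKM in MT, 2.08 in WT and 1.52 in EV, and its footprints were 7.45, 8.10 and 7.67 TPM in MT, WT and EV. AEN, a nuclease that promotes apoptosis, had 16.0 FPKM in MT and 16.6 in WT against 12.6 in EV, and 20.9 TPM in MT and 24.7 in WT against 21.5 in EV. TRIAP1, a small protein that restrains apoptosis, was higher in mRNA under both labels, at 13.3 FPKM in MT and 12.7 in WT against 11.1 in EV. Its footprints were lower, at 56.8 TPM in MT and 50.8 in WT against 67.5 in EV. The log2 difference in footprints minus that in mRNA was -0.49 in MT over EV and -0.58 in WT over EV, just inside the rule.

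TP53INP1, a nuclear stress protein, had 5.28 FPKM in MT, 3.45 in WT and 4.95 in EV, with footprints of 5.62 TPM in MT, 7.12 in WT and 7.30 in EV. Its mRNA was highest and its footprints lowest in MT, and footprints per mRNA differed by -0.79 in MT over WT. CYFIP2, a subunit of the actin-regulating WAVE complex, paired steady mRNA with uneven footprints. Its mRNA was 4.65 FPKM in MT, 4.93 in WT and 4.57 in EV. CYFIP2 footprints were 4.54 TPM in MT and 5.38 in WT against 2.41 in EV, ratios of 1.89 for MT and 2.23 for WT over EV. Of genes under 10 TPM, 18.1% passed 1.5-fold in MT over EV and 18.9% in WT over EV. The apoptosome scaffold APAF1, the AKT inhibitor PHLDA3 and the desmosome-associated PERP had mRNA log2 differences of -0.20 to 0.14 and footprint log2 differences of -0.26 to 0.28 against EV.

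The death receptors stood below EV in both assays under both labels, apart from TNFRSF10A mRNA in WT. Of all genes, 51.3% were below 0 in mRNA of MT over EV and 51.1% in WT over EV. In footprints the shares were 47.9% and 46.6%. Both labels are set against the same EV library, and 3 genes are too few to read a difference in share. FAS, the receptor of the FAS ligand, had 13.7 FPKM in MT and 14.1 in WT against 16.5 in EV. Its footprints were 25.7 TPM in MT and 24.5 in WT against 36.1 in EV, ratios over EV of 0.714 for MT and 0.680 for WT. EV was the highest library for FAS in both assays, although the log2 differences in footprints, -0.47 in MT over EV and -0.54 in WT over EV, stayed inside the rule. TNFRSF10B, the TRAIL receptor DR5, had 31.4 FPKM in MT and 30.6 in WT against 36.2 in EV, and 33.2 TPM in MT and 29.8 in WT against 36.6 in EV. TNFRSF10A, the TRAIL receptor DR4, had 2.98 FPKM in MT, 4.16 in WT and 3.87 in EV, and 7.27 TPM in MT and 7.90 in WT against 9.53 in EV. No death receptor passed 1.5-fold in any comparison. The median log2 difference of the 3 genes was -0.25 in mRNA and -0.35 in footprints in MT over EV, and -0.21 in mRNA and -0.29 in footprints in WT over EV.

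The DNA repair genes include DDB2, whose promoter window holds the complete p53 element shown above. DDB2, the damage-binding protein that starts nucleotide excision repair, had 15.2 FPKM in MT and 13.1 in WT against 18.2 in EV. The ratio of 0.719 for WT over EV was the lowest mRNA ratio over EV among members at 10 FPKM or more, while its footprints were almost level at 22.2 TPM in MT, 21.5 in WT and 23.0 in EV. XPC, which recognises distorted DNA, had 10.1 FPKM in MT, 10.6 in WT and 12.0 in EV, and its footprints were lowest in MT, at 4.64 TPM in MT, 7.21 in WT and 7.02 in EV. POLH, the translesion polymerase eta, had 14.1 FPKM in MT, 14.4 in WT and 13.5 in EV with footprints of 10.9, 15.9 and 11.7 TPM in MT, WT and EV. RRM2B, the p53-induced subunit of ribonucleotide reductase, had 21.1 FPKM in MT and 20.2 in WT against 22.8 in EV. Its footprints were 24.9 TPM in MT and 24.7 in WT against 20.5 in EV. In WT over EV the footprint difference exceeded the mRNA difference for all 4 of these genes, by 0.20 to 0.42 on the log2 scale. The same held for 5548 of all 10335 genes, and 4 genes are too few to read a difference in share. None of the 4 passed the rule.

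The metabolic and redox targets held the largest mRNA difference and the largest differences in footprints relative to mRNA among the members. FDXR, the mitochondrial ferredoxin reductase, had 5.91 FPKM in MT and 6.86 in WT against 9.61 in EV, mRNA ratios over EV of 0.615 for MT and 0.714 for WT. Its footprints ran in the opposite direction, at 15.5 TPM in MT and 12.6 in WT against 9.01 in EV. EV was the highest of the 3 labels in mRNA and the lowest in footprints. Footprint over mRNA values were 2.62 in MT, 1.84 in WT and 0.938 in EV, and the footprint log2 difference minus the mRNA log2 difference was 1.34 in MT over EV and 0.87 in WT over EV. TP53I3, a quinone oxidoreductase-like protein, showed the opposite pattern. Its mRNA was 3.06 FPKM in MT, 1.06 in WT and 0.687 in EV, so that it entered the comparisons with EV through its higher library. TP53I3 footprints were 2.02 TPM in MT and 1.79 in WT against 3.32 in EV. MT held its highest mRNA value, at a log2 difference of 1.27 over EV, and footprints per mRNA differed by -1.78 in MT over EV. Of genes under 10 FPKM, 4.51% passed 1.5-fold in mRNA of MT over EV.

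TIGAR, a phosphatase that lowers glycolytic flux, had 4.85 FPKM in MT and 4.71 in WT against 3.51 in EV, ratios over EV of 1.38 for MT and 1.34 for WT. Its footprints were 22.6 TPM in MT, 21.7 in WT and 20.7 in EV. SESN1, a sestrin that restrains mTORC1, and CMBL, a hydrolase, were highest in EV in mRNA, with log2 differences of -0.16 to -0.08 for both labels over EV.

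RPS27L, a relative of the ribosomal protein RPS27, was the most abundant member in footprints and stood apart in WT. Its mRNA was 58.0 FPKM in MT, 44.8 in WT and 60.5 in EV. RPS27L footprints were 204 TPM in MT, 253 in WT and 183 in EV, so the label with the least mRNA had the most footprints. Footprints per mRNA differed by 0.90 on the log2 scale in WT over EV and by -0.68 in MT over WT. RPS27 stood at 354 FPKM in MT, 291 in WT and 392 in EV and at 2216 TPM in MT, 1943 in WT and 2165 in EV. RPS27 mRNA was thus lowest in WT as well, and its footprints were lowest there too. The pair is closely related, and whether short footprints of one were counted for the other was not tested. ZMAT3, an RNA-binding protein, had 6.01 FPKM in MT and 5.23 in WT against 7.13 in EV, and 5.44, 6.64 and 6.90 TPM in the MT, WT and EV footprints.

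Members differed widely in the ratio of footprints to mRNA, which was taken as log2((TPM + 1)/(FPKM + 1)) for genes at 1 unit or more in both assays. The assays differ in unit, so that only the place of a gene among all genes of its label is read. Across members the ratio spanned -1.85 to 2.99 in MT, -1.39 to 2.47 in WT and -1.88 to 2.51 in EV. The members measured in both assays had medians of 0.35 in MT, 0.68 in WT and 0.48 in EV, where all genes had 0.13, 0.15 and 0.12. GADD45A was highest by the mean of the 3 labels, at percentile 97.7 of all genes in MT, 92.9 in WT and 95.7 in EV, while RPS27L was above it in WT at percentile 95.5 and TRIAP1 in EV. TRIAP1 stood at percentile 92.0 in MT, 91.5 in WT and 95.8 in EV, and TIGAR at 92.0, 92.3 and 94.5 in MT, WT and EV. At the low end stood APAF1, with 8.40 FPKM in MT, 7.67 in WT and 8.99 in EV and footprints of 1.61 TPM in MT, 2.31 in WT and 1.72 in EV. Its percentiles were 5.5 in MT, 10.0 in WT and 5.1 in EV. XPC stood at percentile 17.7 in MT, 29.4 in WT and 25.1 in EV. MDM2 stood at 25.1 in MT, 34.0 in WT and 25.8 in EV, and CDKN1A, at 91.5 in MT, 91.5 in WT and 90.2 in EV, lay above it under every label. SESN1 was also low, with log2 ratios of -1.14 in MT and -1.16 in EV, and was under 1 TPM in WT.

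**Figure D4:**
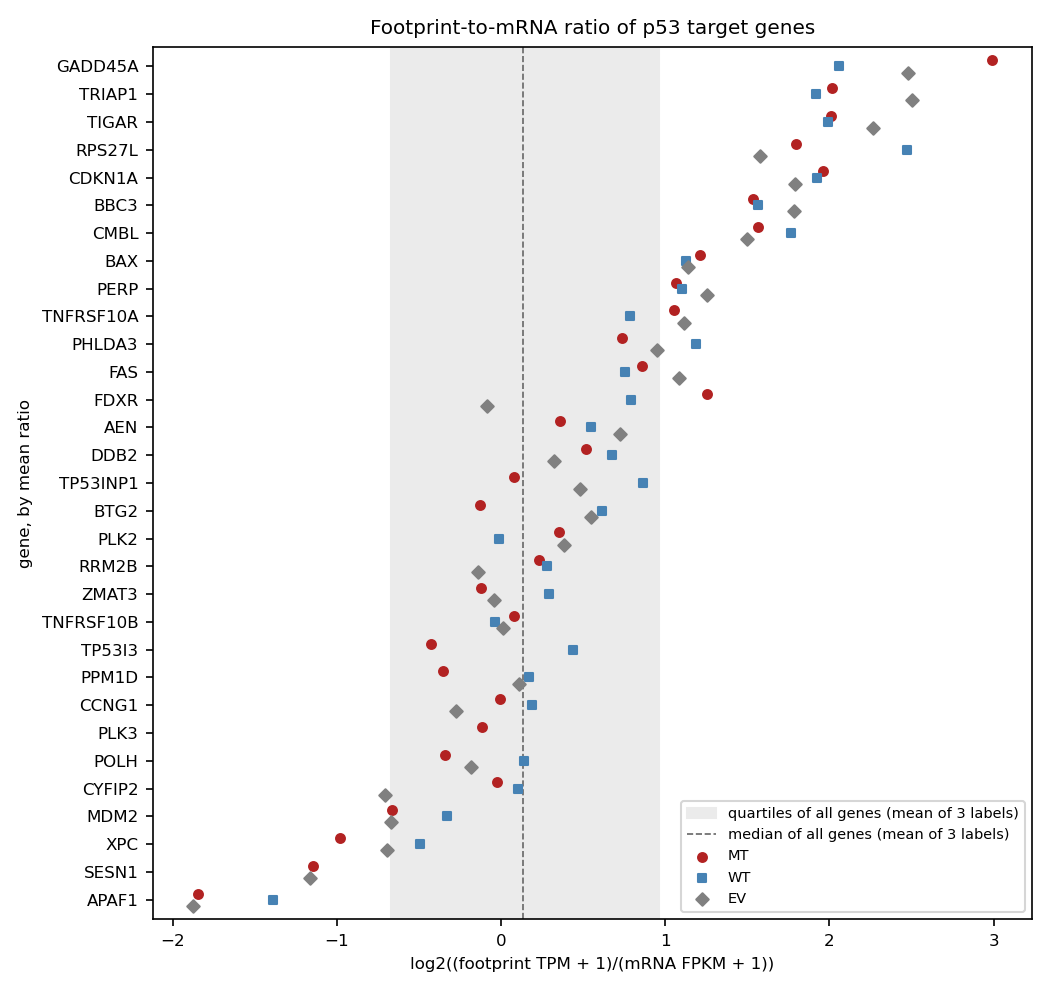
log2 ratio of footprint to mRNA values for each p53 target gene measured in a library, with MT as circles, WT as squares and EV as diamonds, genes sorted by their mean, the dashed line at the median of all genes and the shaded band between their quartiles, each averaged over the 3 labels. GADD45A lies at 2.99 in MT and APAF1 at -1.85, and FDXR lies at 1.25 in MT, 0.79 in WT and -0.08 in EV.

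Counted by the rule of size, the change in footprints relative to mRNA passed 1.5-fold for 4 of 31 genes in MT over EV (CYFIP2 and FDXR upward, BTG2 and TP53I3 downward), against 13.7% of 10331 genes. In WT over EV 4 of 30 passed, with CYFIP2, FDXR and RPS27L upward and TP53I3 downward (16.9% of 10335 genes). In MT over WT 6 of 31 passed, with GADD45A and PLK3 upward and BTG2, TP53INP1, TP53I3 and RPS27L downward (17.7% of 10352 genes). PLK3 footprints were under 1 TPM in WT and entered that comparison through MT. Past 2-fold stood 2 of 31 in MT over EV, FDXR upward and TP53I3 downward (3.51% of all genes), and none in WT over EV (4.21%) or MT over WT (4.82%). The counts past 1.5-fold lie near the shares of all genes.

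Among the regulators of the pathway, CDKN2A was close to 0, at 0.095 FPKM in MT, 0.086 in WT and 0.169 in EV, and listed at 0 in all 3 Ribo-seq libraries. MDM4, the relative of MDM2 that blocks p53 activity, had 7.13 FPKM in MT and 3.94 in WT against 8.24 in EV. Its footprints were 1.84 TPM in MT and 3.34 in WT against 1.80 in EV, so WT was lowest in mRNA and highest in footprints. Of 24 regulators 22 were measured in mRNA, and MDM4 alone passed 1.5-fold, downward in WT over EV and upward in MT over WT, where 2.63% and 3.23% of all genes passed. Among genes under 10 FPKM, as MDM4 was, 5.04% and 5.88% passed in these comparisons. The mRNA medians of the regulators were -0.01 in MT over EV and 0.06 in WT over EV. In footprints 4 of 21 regulators passed in MT over EV, 6 of 21 in WT over EV, MDM4 upward among them, and 3 of 21 in MT over WT, against 10.8%, 12.1% and 12.5% of all genes. Among genes under 10 TPM, as MDM4 was, 18.9% passed in WT over EV.

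A further 50 genes described as p53 targets were listed, of which 42 were measured in mRNA and 43 in footprints. Their mRNA medians were -0.05 in MT over EV, -0.04 in WT over EV and -0.05 in MT over WT, and 4, 2 and 2 of the 42 passed 1.5-fold, against 2.31%, 2.63% and 3.23% of all genes. In footprints the medians were -0.01 in MT over EV, -0.20 in WT over EV, where 32 of 43 genes were below 0 against 46.6% of all genes, and 0.08 in MT over WT. Past 1.5-fold stood 3, 9 and 8 of the 43, against 10.8%, 12.1% and 12.5% of all genes. TMEM68 footprints were 58.1 TPM in MT and 53.9 in WT against 26.4 in EV, while its mRNA was 23.8 FPKM in MT, 22.6 in WT and 23.3 in EV. PIDD1, a death domain protein of the PIDDosome, had 1.24 TPM in MT and 1.31 in WT against 3.51 in EV. The checkpoint protein SFN had 1.03 TPM in MT and 1.39 in WT against 3.50 in EV. CDIP1, a pro-apoptotic membrane protein, had 1.64 TPM in MT and 3.62 in WT against 0.809 in EV. It entered the footprint comparisons with EV through its higher library, so it could only count as higher. PIDD1, SFN and CDIP1 were all under 10 TPM. At that level 18.1% of genes passed 1.5-fold in MT over EV and 18.9% in WT over EV. NADSYN1, a NAD synthetase, and the RNA sensor TLR3 passed 2-fold in footprints relative to mRNA, NADSYN1 at a log2 difference of -1.03 in WT over EV and TLR3 at 1.11 in MT over WT.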

How the data were processed

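The labels' protocols describe TRIzol extraction, cycloheximide in the medium before harvest for Ribo-seq, digestion with RNase I and DNase I, depletion of ribosomal RNA with probes, and NEBNext library kits. Human genome build hg 18 stands in the submitters' processing notes; an aligner, a counting method, strand use and an annotation are not named there. The RNA-seq values as deposited by the authors name no unit and were read as FPKM, normalized by length and library size. Their column sums, 459938 to 469859, would also allow TPM over more genes than the table holds. The deposited Ribo-seq columns were read as TPM because each sums to 1000000. Left out were 605 of 20307 rows without a gene name (0.153% to 0.564% of a column) and 7 symbols with differing rows; 18 identical rows were merged.

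Differences are of log2(value + 1), computed in Python 3.11.15 with pandas 2.3.3 and numpy 2.4.6, and the script was tested on simulated data. With 1 library per group no test was run; 1.5-fold and 2-fold are rules of size. The rule for named genes took members past 1.5-fold in any comparison, the 5 most abundant per assay, the 3 highest and 3 lowest footprint-to-mRNA ratios, MDM2, CDKN1A, BAX, MDM4, CDKN2A, PHYHD1 and RPS27, and up to 4 other targets per comparison past 2-fold. Some genes that this rule names are not reported here. Further members were added for their role, with their values known. Members and lists were chosen with earlier results of these data known. The counts by label, across assays and by level, the promoter patterns and the tolerance for medians were added after the data were seen. Alternatives were pseudocounts of 0.1 and 5, a minimum of 10 units, no minimum, and centring on the median of all genes.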

Additional observations from a re-analysis of the deposited data

How the results depend on the processing

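No paired analysis was possible because each label has 1 library in each assay. Of 135 alternative medians of the 3 lists 133 moved by less than 0.1 (log2), a tolerance and not a spread between replicates, and 13 of the 135 changed sign, 2 of them medians of the p53 targets. The footprint median of the p53 targets in MT over WT became 0.028 at a minimum of 10 units. At the same minimum their median of footprints relative to mRNA in MT over EV became 0.036, and that of the other p53 targets in WT over EV became -0.213. Of 90 alternative counts 63 stayed within 1.5 times, and the cause of the changes in the other 27 was not tested. With a pseudocount of 5 the members past 1.5-fold were 0 in mRNA of MT over EV and of MT over WT. Of all genes 0.336% and 0.608% passed there. In footprints 0 members passed in MT over EV and in WT over EV, against 2.76% and 3.65% of all genes. In footprints relative to mRNA 2 members passed in each of the 3 comparisons. The shares of all genes there were 4.63% in MT over EV, 6.5% in WT over EV and 7.05% in MT over WT. At a minimum of 10 units 18 to 20 members were measured. In mRNA 0 of them passed in MT over EV and in MT over WT, against 0.823% and 1.46% of all genes. In footprints 1 passed in MT over EV and 0 in WT over EV, against 5.68% and 7.47%. In footprints relative to mRNA 0, 2 and 1 passed in MT over EV, MT over WT and WT over EV. The shares of all genes there were 6.35%, 10.9% and 10.1%. With a pseudocount of 0.1, 2 members passed in mRNA of MT over WT and 1 in WT over EV, against 6.11% and 5.34% of all genes. In footprints 5 passed in MT over EV and 2 in MT over WT, against 15.9% and 17.7% of all genes. Past 2-fold, a pseudocount of 5 or a minimum of 10 units left 0 members in mRNA and 0 in footprints relative to mRNA of MT over EV. A pseudocount of 0.1 gave 1 in mRNA of MT over WT, 1 in footprints of MT over WT and 1 of WT over EV, and 2 each in footprints relative to mRNA of MT over WT and WT over EV. The shares of all genes past 2-fold were not computed at these settings, so the 2-fold counts have no background beside them. TP53I3, CYFIP2, BTG2 and FDXR each have a library under 10 units in the assays in which they passed. Read totals are unknown, so depth sets no stated limit on these values, and with 1 library per label none could be left out.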
